A study of Mus musculus with 6 samples.

Results

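The 36 genes described here are the heat shock and unfolded protein response genes of a mouse tumour study, found by symbol among the 55291 rows of its deposited count table. All 36 are rows of the table, and all 36 passed the filter on low counts. They fall into 14 genes of the cytosolic and mitochondrial heat shock response, 14 genes of the endoplasmic reticulum (ER) unfolded protein response and 8 genes of the integrated stress response. RNA was sequenced in bulk from 6 libraries, 3 of NK cells and 3 of type 1 innate lymphoid cells (ILC1s). All came from tumours of MC38, a mouse colon carcinoma line, grown under the skin of wild-type C57BL/6 mice for 14 days. Tumour-infiltrating cells were sorted straight into TRIzol, and the labels name no drug, deletion or transgene in either group. Neither the surface markers of the 2 sort gates nor a statement that replicates came from separate mice is given in the sources used here. The p-values therefore measure only the spread between these samples, which may be technical.

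NK cells and ILC1s are related lymphocytes that share NK1.1 and NKp46; NK cells circulate and need the transcription factor Eomes, whereas ILC1s mostly reside in tissue. The heat shock response is run by HSF1, a transcription factor that binds arrays of GAA and TTC units when unfolded protein accumulates in the cytosol and turns on HSP70, HSP90 and their J-protein and small heat shock protein partners. The unfolded protein response watches the ER through the membrane sensors IRE1α (the product of Ern1), ATF6 and PERK; the first splices Xbp1 mRNA into the message of an active transcription factor, and the second is cut to release one, and both raise ER chaperones and protein disulfide isomerases. The integrated stress response starts when eIF2α is phosphorylated by PERK or by kinases that sense amino acid shortage, viral RNA or haem shortage, which favours translation of ATF4 and, through it, genes of amino acid supply and growth arrest. Heat shock genes are also known to be induced when tissue is digested and cells are sorted. Xbp1 splicing, eIF2α phosphorylation and ATF6 cleavage are not read by gene counts.

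The libraries held 16931099 to 20224847 counts assigned to genes. NK markers (Eomes, Itga2, S1pr5, Klra8, Klra4) summed to 1256 to 2028 CPM (the count scaled to the size of the library) in the NK libraries and to 108 to 364 CPM in the ILC1 libraries, and ILC1 markers (Itga1, Cxcr6, Zfp683, Cd200r1, Tmem176a) to 61.5 to 81.5 CPM and 312 to 472 CPM, so each label matched its own marker set. Group 1 ILC markers (Ncr1, Klrb1c, Tbx21, Il2rb, Klrk1) summed to 7565, 7907 and 5072 CPM in NK cells and to 4793, 4145 and 4007 CPM in ILC1s. All 5 had a fold change below 0, and 3 had every ILC1 library below every NK library, against 13.3% of all genes. Markers of other cell types differed between libraries of the same label. The 10 fibroblast and matrix genes summed to 8.89 and 19.6 CPM in NK replicates 1 and 2, where Col5a1 and Lum were at 0, and to 1437 CPM in NK replicate 3. In ILC1 replicates 1, 2 and 3 they summed to 1752, 2370 and 5955 CPM, but in ILC1 replicate 3 Fn1 made 5896 CPM of that sum while Col3a1 stood at 20.8 CPM. The 10 macrophage genes summed to 180, 101 and 231 CPM in NK cells and to 320.2, 236 and 11165 CPM in ILC1s. In ILC1 replicate 3 Lyz2 stood at 5838 CPM, against 29.8 to 117 CPM elsewhere. T cell genes summed to 72.3, 70.2 and 54.4 CPM in NK cells and to 75.1, 73.2 and 208 CPM in ILC1s. Fibroblast and matrix, macrophage and T cell sums were thus each higher in every ILC1 library than in every NK library. Gene by gene this held for 1 of 9, 6 of 10 and 4 of 7 tested genes, against 12.5% of all genes. Epithelial tumour sums had the same order, although only 2 of 5 tested genes had a fold change above 0. B cell and endothelial sums overlapped. Libraries with many collagen transcripts, namely NK replicate 3 with ILC1 replicates 1 and 2, are referred to as matrix-rich. These 3 were picked out by the matrix genes, not by the 36 members, and form no group of the study. They differed from the rest in more than matrix genes. They had 20772 to 21872 genes above 0, against 15819 and 15862 in NK replicates 1 and 2 and 19402 in ILC1 replicate 3. In log2 CPM, NK replicate 3 correlated with ILC1 replicates 1 and 2 at 0.977 and 0.971. With NK replicates 1 and 2 its correlations were 0.880 and 0.880.

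None of the 36 genes passed the test between ILC1s and NK cells. By edgeR's quasi-likelihood test with Benjamini-Hochberg adjustment over 14475 genes, the members' adjusted p ran from 0.175 for Ddit4 to 0.957 for Hsf1. Of all tested genes 0.0829% passed, 0.0760% higher and 0.00691% lower in ILC1s. The members' log2 fold changes, ILC1 minus NK, were above 0 for 26 of 36, where 56.0% of all tested genes were above 0, and their median was 0.34 against 0.081 for all tested genes. At an unadjusted p under 0.05, 6 members were higher (Hspa5, Pdia6, Sdf2l1, Manf, Ddit4 and Sesn2) and 0 lower, where 6.95% and 8.82% of all genes were. DESeq2 called 1 member, Ddit4, as higher and 0 as lower, where it called 2.76% and 2.87% of genes, and limma-voom called 0 members. Every ILC1 library stood above every NK library for 8 members (the same 6 with Hsp90b1 and Xbp1), 22.2% of them, where 12.5% of all genes did so, and 0 members did the opposite, where 13.3% did. In bulk RNA, fewer cells of a type and less RNA per cell cannot be told apart, and this holds for every level given here.

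**Figure D1:**
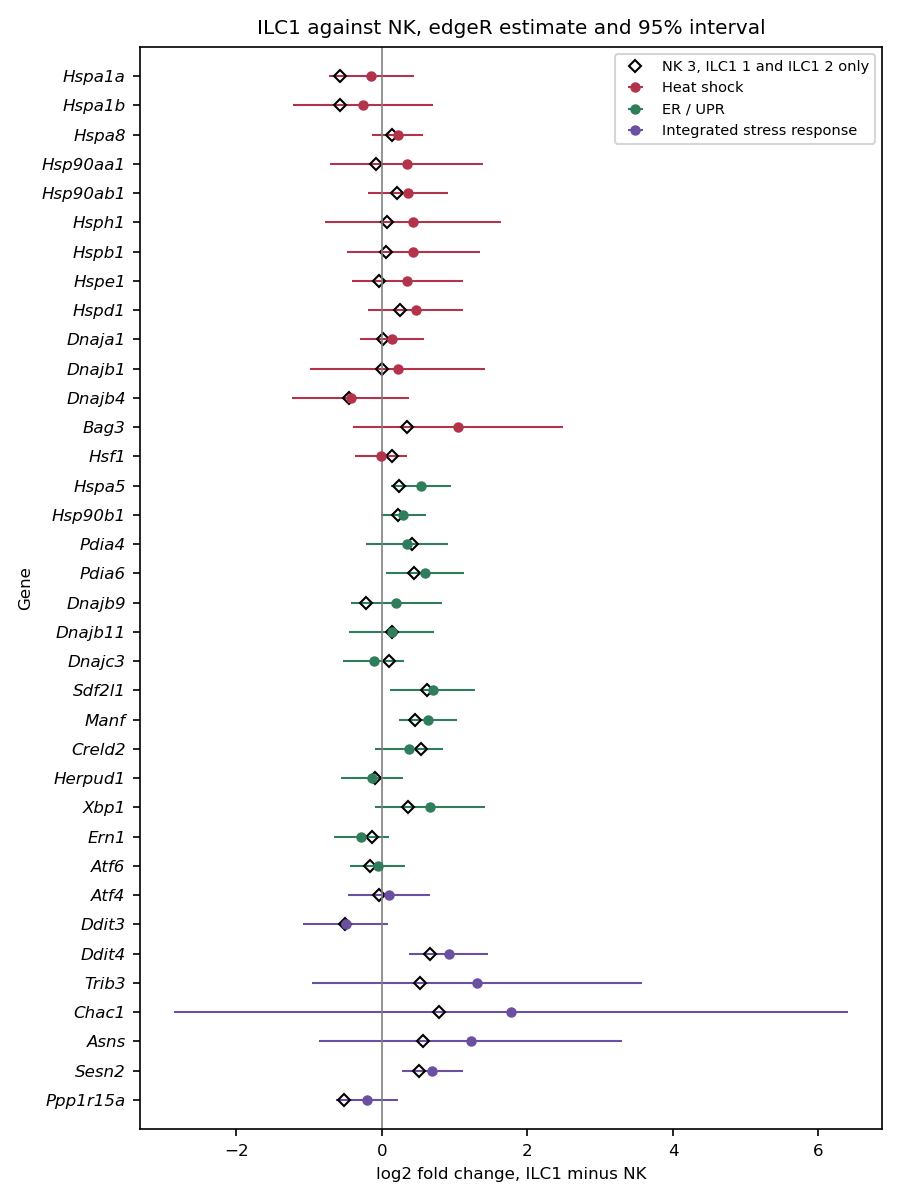
Log2 fold change (ILC1 minus NK, x axis) with the 95% interval from edgeR's quasi-likelihood fit for each of the 36 genes (y axis), coloured by arm; n = 3 libraries a group. Open diamonds give the log2 difference between the mean of ILC1 replicates 1 and 2 and NK replicate 3, with no interval. The widest interval is that of Chac1, and the intervals of Hspa5, Pdia6, Sdf2l1, Manf, Ddit4 and Sesn2 lie above 0 before adjustment for 14475 tests.

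The 3 arms differed in which libraries stood high. Summed over the 14 heat shock genes, the level was 7473, 7019 and 10556 CPM in the NK libraries and 10735, 11096 and 7778 CPM in the ILC1 libraries. The 3 matrix-rich libraries held the 3 highest sums, and the 2 groups overlapped. The 14 ER genes summed to 3081, 2824 and 3075 CPM in NK cells and to 3545, 3664 and 4509 CPM in ILC1s. Here the groups did not overlap, and ILC1 replicate 3 stood highest. For the 8 integrated stress response genes the sums were 990.3, 848 and 1309 CPM in NK cells and 1253, 1293 and 980.3 CPM in ILC1s, so that the matrix-rich libraries again held the 3 highest values. Counted gene by gene, the 3 matrix-rich libraries all stood above the other 3 for 11 of the 14 heat shock genes, 4 of the 8 integrated stress response genes and 0 of the 14 ER genes, where 21.5% of all genes did so. ILC1 replicate 3 stood above both other ILC1 libraries for 12 of 14 ER genes, 1 of 8 integrated stress response genes and 0 of 14 heat shock genes, where 38.6% of all genes did so. It stood below both for 2, 7 and 13 genes of these arms, where 49.7% of all genes did so. Whether the matrix or macrophage transcripts of these libraries have a part in the members' levels was not tested.

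**Figure D2:**
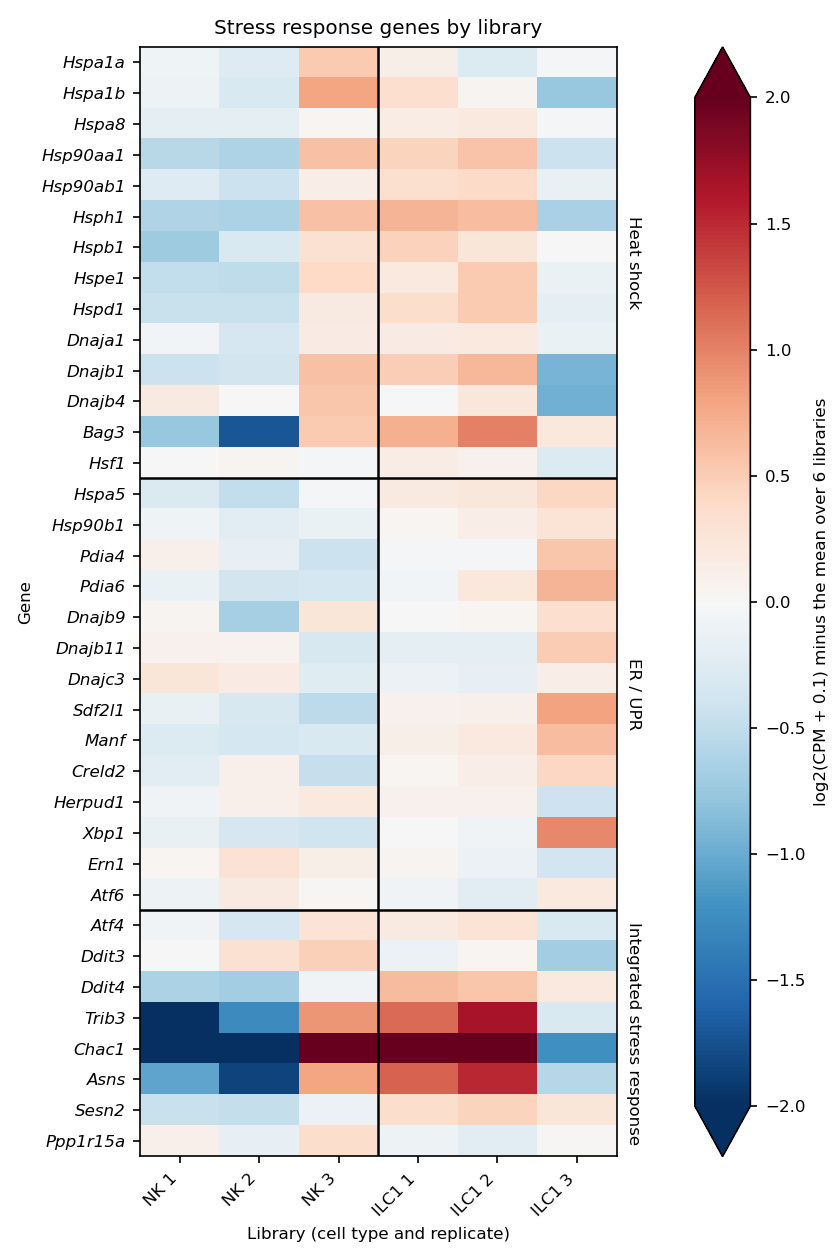
Level of each of the 36 genes (rows, by arm) in the 6 libraries (columns), as log2 of CPM with 0.1 CPM added, centred on the gene's mean over the libraries. For 11 of the 14 heat shock genes, all but Hspa1a, Dnajb4 and Hsf1, the 3 matrix-rich libraries are all above the other 3. Most ER genes are highest in ILC1 replicate 3.

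In the heat shock arm, log2 fold changes ran from -0.43 for Dnajb4 to 1.05 for Bag3 with a median of 0.28. Of the 14 genes, 10 had a value above 0, where 56.0% of all genes did. Groups without overlap were seen for 0, where 12.5% of all genes had ILC1s higher and 13.3% lower. Hsf1 itself, the factor that drives the response, was measured at 68.9, 70.9 and 67.1 CPM in NK cells and at 75.6, 72.4 and 56.3 CPM in ILC1s. The groups overlapped, and the log2 fold change was -0.02 ± 0.15 (SE), with a 95% interval of -0.38 to 0.34. It was the only heat shock gene that was not higher in NK replicate 3 than in both other NK libraries; 42.7% of all genes were higher there.

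The inducible cytosolic HSP70 is encoded by the neighbouring intronless genes Hspa1a (GRCm38 chr17:34969190-34972156, minus strand) and Hspa1b (chr17:34956436-34959238, minus strand), which lie 9951 bases apart. Hspa1b was measured at 587, 512 and 1088 CPM in NK cells and at 795, 658 and 373 CPM in ILC1s. NK replicate 3 was the highest library and ILC1 replicate 3 the lowest, and the groups overlapped. The means were 729 ± 313 CPM (SD, n = 3) and 609 ± 216 CPM, and the log2 fold change of -0.26 ± 0.40 (SE) had an edgeR adjusted p of 0.764. Hspa1a stood at 187, 166 and 285 CPM in NK cells and at 216, 165 and 194 CPM in ILC1s. Again NK replicate 3 was the highest and the groups overlapped. These genes share sequence: 66.3% of the 50-base stretches of Hspa1a, the read length used, occur also in another gene, and 58.8% of all its stretches occur in Hspa1b. The counting of such reads is not stated, so the split between the pair is uncertain. Their sum was 774.5, 678 and 1373 CPM in NK cells and 1011.5, 823 and 567 CPM in ILC1s. Hspa1a made 20.02% to 24.5% of that sum in 5 libraries and 34.3% in ILC1 replicate 3.

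The constitutive cytosolic HSP70, Hspa8, and the constitutive HSP90, Hsp90ab1, were the members with the highest levels per length of exon. Hspa8 was measured at 2702, 2688 and 3135 CPM in NK cells and at 3389, 3509.9 and 3011 CPM in ILC1s. Only the NK library with matrix transcripts reached the ILC1 range, and the log2 fold change was 0.22 ± 0.14 (SE). Hsp90ab1 was at 2375, 2105 and 3126 CPM in NK cells and at 3524, 3697 and 2559 CPM in ILC1s, a log2 fold change of 0.36 ± 0.23 with an edgeR adjusted p of 0.477. The highest 3 values came from the 3 matrix-rich libraries. Hsp90aa1, the stress-inducible HSP90, moved more between libraries: 498, 478 and 1108 CPM in NK cells, and 996, 1091 and 547 CPM in ILC1s. NK replicate 3 was its highest library, at 2.27 times the mean of the other NK libraries, and the group means of 695 and 878 CPM differed by less than either SD, 358 and 291 CPM. Hsph1, an HSP110 that exchanges nucleotide on HSP70, had the same shape, with 125, 122 and 284 CPM in NK cells and 304, 292 and 121 CPM in ILC1s. The low libraries lay at 121 to 125 CPM and the high ones, which were the matrix-rich ones, at 284 to 304 CPM. Of the 50-base stretches of Hsp90aa1, 47.5% occur also in another gene, so its counts are uncertain.

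Among the mitochondrial chaperones, Hspd1 (HSP60) was at 252, 252 and 389.7 CPM in NK cells and at 436, 494 and 303 CPM in ILC1s, with a log2 fold change of 0.46 ± 0.27 (SE) and an edgeR adjusted p of 0.443. Its partner Hspe1 (HSP10) was at 104, 103 and 194 CPM and at 169, 210.2 and 134 CPM. Both were highest in the 3 matrix-rich libraries, and both groups overlapped. The 2 genes are transcribed in opposite directions from a shared start region and their annotated spans overlap by 112 bases. A read there could belong to either where strand was not used. Stretches of 50 bases that occur also in another gene made 42.1% of Hspd1 and 22.8% of Hspe1, so their counts are uncertain.

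J-proteins hand unfolded clients to HSP70. Dnajb1, the most inducible of them, was measured at 209, 218 and 419.7 CPM in NK cells and at 393, 443 and 147 CPM in ILC1s. The 3 matrix-rich libraries stood well above the rest, and ILC1 replicate 3 was the lowest of all 6. Dnaja1 varied less, from 235 to 339 CPM over the 6 libraries, with a log2 fold change of 0.14. Dnajb4 was at 62.1, 55.1 and 81.2 CPM in NK cells and at 54.7, 64.1 and 28.3 CPM in ILC1s, with the lowest fold change of the arm, -0.43 ± 0.33 (SE). Bag3, a co-chaperone that couples HSP70 to autophagy and is itself an HSF1 target, was at 15.3, 7.86 and 37.1 CPM in NK cells and at 42.5, 52.3 and 29.9 CPM in ILC1s. Its groups overlapped through NK replicate 3, and its log2 fold change of 1.05 ± 0.58 had an edgeR adjusted p of 0.435. That value was 1.85 without NK replicate 3 and 0.67 without NK replicate 2. The small heat shock protein gene Hspb1 was low throughout, at 3.65 to 8.404 CPM, and 50.1% of its 50-base stretches occur also in another gene, 48.8% of all its stretches in the pseudogene Hsp25-ps1.

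Promoter sequence was read for 30 of the 36 genes from RefSeq (GRCm38.p6), as the 250 bases before the annotated start, on both strands. A heat shock element of at least 3 alternating GAA and TTC units with 2 bases between units was found in 2 of the 10 heat shock genes with a promoter, Hspe1 and Hspd1, and in 0.514% of all 27025 genes. Both matches are the same stretch of DNA, which holds 4 such units, shown on the strand of each gene with the units and their gaps in capitals. It lies before both RefSeq starts and before the GENCODE start of Hspe1, but inside the longer GENCODE span of Hspd1.
Hspe1, chr1:55088053-55088082, plus strand: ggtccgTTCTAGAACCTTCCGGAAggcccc
Hspd1, chr1:55088053-55088082, minus strand: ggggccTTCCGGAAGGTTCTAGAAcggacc

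The shorter form GAANNTTC was found in 6 of the 10, which include that pair, and in 7.73% of all genes; it was in 0 of 12 ER genes and in 1 of 8 integrated stress response genes, Asns. The HSP70 pair carry the same 30 bases in the same place, and their 250-base windows are identical at 247 positions. They are shown because the genes are near copies here as well as in their exons, beside Dnaja1 and the 2 matches of Hspb1, with each match in capitals. The Dnaja1 stretch lies inside the GENCODE span of that gene, which starts upstream of the RefSeq start. A match is a description of letters and not a measured site.
Hspa1a, chr17:34972242-34972271, minus strand: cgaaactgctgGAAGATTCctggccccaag
Hspa1b, chr17:34959324-34959353, minus strand: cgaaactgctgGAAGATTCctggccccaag
Dnaja1, chr4:40722333-40722362, plus strand: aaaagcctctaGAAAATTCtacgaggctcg
Hspb1, chr5:135887791-135887820, plus strand: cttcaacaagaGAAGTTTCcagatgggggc
Hspb1, chr5:135887811-135887840, plus strand: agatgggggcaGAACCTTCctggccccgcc

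In the ER arm, 4 of 14 genes were higher in ILC1s at an unadjusted p under 0.05 and 0 lower, where 6.95% and 8.82% of all genes were. Every ILC1 library stood above every NK library for 6 of 14, against 12.5% of all genes, and 10 of 14 had a fold change above 0, against 56.0%. The median log2 fold change was 0.32, and it was 0.17 without ILC1 replicate 3. Ern1 was measured at 119.8, 142 and 126 CPM in NK cells and at 121, 108 and 89.7 CPM in ILC1s, and Atf6 at 94.5, 114 and 103 CPM and at 96.3, 86.5 and 116 CPM. Both sets of values overlapped, with log2 fold changes of -0.28 ± 0.15 and -0.06 ± 0.16 (SE). Xbp1 (chr11:5520659-5525893, plus strand) was at 135, 119 and 113 CPM in NK cells and at 148, 142 and 291 CPM in ILC1s. All 3 ILC1 values lay above the NK values, but ILC1 replicate 3 alone was 2.01 times the mean of the other 2. The log2 fold change of 0.66 ± 0.31 had an edgeR adjusted p of 0.360, and it was 0.23 without ILC1 replicate 3.

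Hspa5 (chr2:34771970-34777547, plus strand) encodes BiP, the HSP70 of the ER lumen, which holds the sensors inactive until clients draw it away. It was measured at 1073, 931 and 1279 CPM in NK cells and at 1485, 1527 and 1737 CPM in ILC1s. Every ILC1 library stood above every NK library, with means of 1583 ± 135 against 1094 ± 175 CPM (SD, n = 3). The log2 fold change was 0.53 ± 0.17 (SE) with a 95% interval of 0.12 to 0.94, and an edgeR adjusted p of 0.251 that did not pass. Hsp90b1, the ER HSP90 that folds integrins and Toll-like receptors, was at 544, 492 and 525 CPM in NK cells and at 590.0, 631 and 694 CPM in ILC1s. The groups did not overlap, although their distance was small, a log2 fold change of 0.30 ± 0.13.

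Manf (chr9:106838312-106891979, minus strand), a secreted ER-resident protein that binds BiP, had the smallest spread among NK libraries of any ER gene, at 97.1, 92.4 and 95.5 CPM. In ILC1s it was at 128, 135 and 180.3 CPM. All ILC1 values were higher, by a log2 fold change of 0.63 ± 0.16 (SE) with a 95% interval of 0.24 to 1.03 and an edgeR adjusted p of 0.187. Sdf2l1 (chr16:17130138-17132383, minus strand), part of the BiP chaperone cycle, was at 57.7, 50.9 and 44.1 CPM in NK cells and at 67.9, 68.3 and 111 CPM in ILC1s. Its groups did not overlap, and the log2 fold change was 0.70 ± 0.24, or 0.41 without ILC1 replicate 3. Creld2, an ER stress-induced protein with disulfide isomerase activity, was at 54.0, 66.7 and 45.4 CPM and at 63.8, 68.1 and 83.2 CPM, with a single NK library inside the ILC1 range.

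Of the protein disulfide isomerases, which form and reshuffle disulfide bonds, Pdia6 was at 252, 215 and 217 CPM in NK cells and at 265, 320.2 and 444 CPM in ILC1s. No value overlapped, and the log2 fold change was 0.59 ± 0.22 (SE) with an edgeR adjusted p of 0.290. Pdia4 was at 201, 167 and 139 CPM in NK cells and at 184, 185 and 277 CPM in ILC1s, with overlap. The ER J-proteins were nearer to 0: Dnajb9, Dnajb11 and Dnajc3 had log2 fold changes of 0.20, 0.13 and -0.12, and all overlapped. Herpud1, which serves the disposal of misfolded ER proteins, was at 83.5, 93.2 and 99.5 CPM in NK cells and at 93.0, 92.8 and 65.7 CPM in ILC1s. It and Ern1 were the 2 ER genes that were lowest among ILC1s in replicate 3.

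An ER stress element, CCAAT and CCACG separated by 9 bases, was found in the promoters of 5 of the 12 ER genes with a RefSeq promoter and in 0.130% of all genes. It was in 0 of 10 heat shock and 0 of 8 integrated stress response genes. The 5 genes did not behave alike: Hspa5, Hsp90b1 and Pdia6 had groups without overlap, while Creld2 and Dnajc3 overlapped, the latter with a negative fold change. Both ends of the element are in capitals, and where it reads on the opposite strand the capitals show its reverse complement. For Hspa5, the GENCODE gene model starts upstream of the RefSeq start, so this stretch lies inside the GENCODE span.
Hspa5, chr2:34772020-34772048, plus strand, 65 to 47 bases before the start: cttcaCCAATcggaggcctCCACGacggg
Hsp90b1, chr10:86705633-86705661, minus strand, 212 to 194 bases before the start: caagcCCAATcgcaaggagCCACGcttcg
Hsp90b1, chr10:86705528-86705556, minus strand, 107 to 89 bases before the start: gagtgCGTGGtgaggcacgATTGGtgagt
Pdia6, chr12:17266486-17266514, plus strand, 98 to 80 bases before the start: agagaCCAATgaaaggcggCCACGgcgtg
Dnajc3, chr14:118937822-118937850, plus strand, 105 to 87 bases before the start: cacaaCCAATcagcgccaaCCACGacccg
Creld2, chr15:88819515-88819543, plus strand, 126 to 108 bases before the start: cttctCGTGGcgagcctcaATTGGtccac

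**Figure D3:**
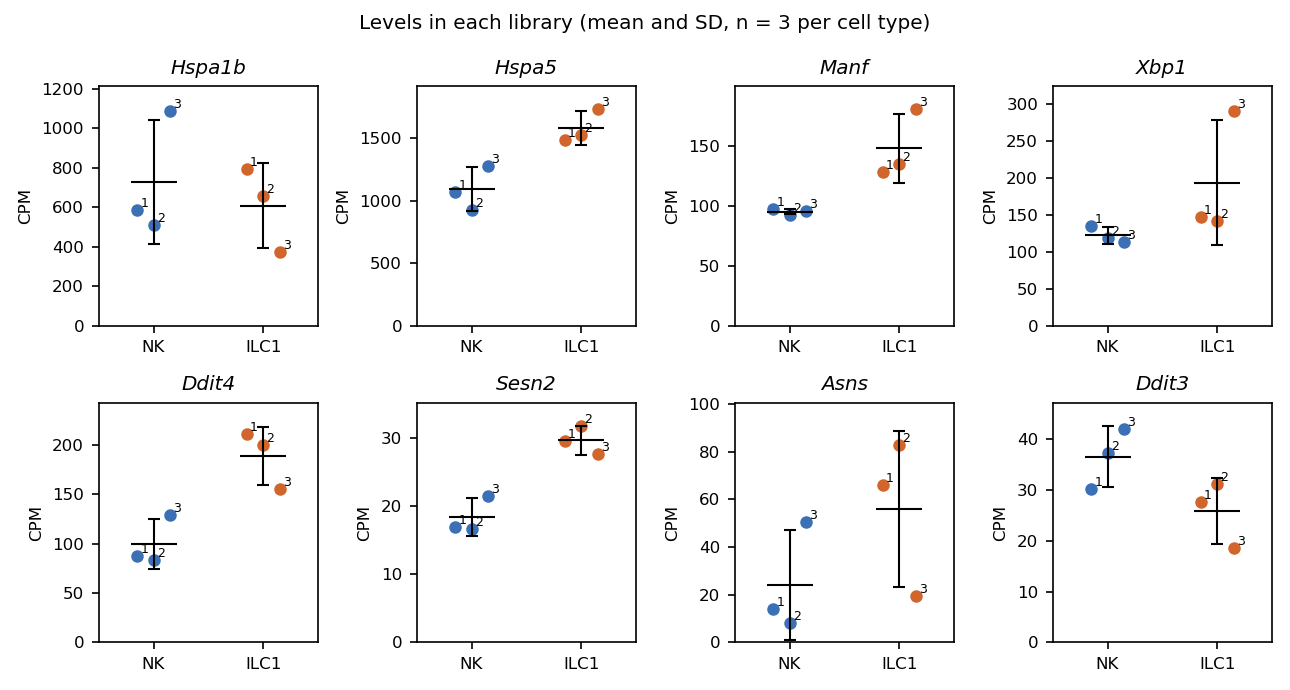
CPM (y axis, from 0) of Hspa1b, Hspa5, Manf, Xbp1, Ddit4, Sesn2, Asns and Ddit3 in each library (points), with group means and SD (n = 3). Hspa5, Manf, Xbp1, Ddit4 and Sesn2 have every ILC1 point above every NK point, whereas Hspa1b, Asns and Ddit3 overlap.

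In the integrated stress response arm, the median log2 fold change was 0.80. Of the 8 genes, 6 were above 0, where 56.0% of all genes were, and 2 had every ILC1 library above every NK library, where 12.5% of all genes did. Atf4, the factor at the centre of the response, was measured at 484, 401 and 613 CPM in NK cells and at 575, 614 and 412 CPM in ILC1s. The groups overlapped fully and the log2 fold change was 0.10 ± 0.23 (SE), with a sign that changed between fits. Its control is mainly at translation, which these counts do not read. Ddit3 (CHOP), an ATF4 target that drives death under lasting stress, was at 30.1, 37.3 and 42.0 CPM in NK cells and at 27.7, 31.1 and 18.5 CPM in ILC1s. Only NK replicate 1 lay within the ILC1 range, and the log2 fold change was -0.50 ± 0.24 with an edgeR adjusted p of 0.371. Its annotation holds 2 models of the same name, and 4.73% of its exon bases overlap other genes, Mars among them, so its counts are uncertain. Ppp1r15a (GADD34), which directs the phosphatase that ends the response, was at 356, 298 and 427 CPM in NK cells and at 309.8, 287 and 339 CPM in ILC1s. It too had a value below 0, -0.21 ± 0.17, and its groups overlapped.

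Ddit4 and Sesn2 both encode inhibitors of mTORC1 signalling, REDD1 and sestrin 2. Ddit4 (chr10:59949669-59951834, minus strand) was at 87.0, 83.2 and 129 CPM in NK cells and at 210.5, 199 and 155 CPM in ILC1s. All ILC1 libraries stood above all NK libraries, and NK replicate 3 was the nearest of the NK libraries to them. The means were 99.7 ± 25.4 and 188 ± 29.0 CPM (SD, n = 3), a log2 fold change of 0.92 ± 0.22 (SE) with a 95% interval of 0.37 to 1.46. The adjusted p was 0.175 by edgeR and 0.0128 by DESeq2, and this was the one member on which these tools gave different calls. Sesn2 (chr4:132492032-132510501, minus strand) was at 16.98, 16.6 and 21.5 CPM in NK cells and at 29.6, 31.8 and 27.6 CPM in ILC1s. Its groups did not overlap, and the log2 fold change of 0.69 ± 0.17 had an edgeR adjusted p of 0.181.

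Asns, Trib3 and Chac1 are ATF4 targets for asparagine synthesis, for feedback on ATF4 and for glutathione breakdown. Asns was at 13.9, 7.96 and 50.4 CPM in NK cells and at 66.0, 82.7 and 19.6 CPM in ILC1s. Trib3 was at 1.998, 3.59 and 16.5 CPM and at 19.5, 28.1 and 7.13 CPM. Both were highest in the 3 matrix-rich libraries and both groups overlapped. Chac1 (chr2:119351229-119354381, plus strand) varied most of all members: it had 6, 1 and 210 counts in the NK libraries and 274, 403 and 16 counts in the ILC1 libraries, or 0.300, 0.0514 and 10.1 CPM and 15.3, 19.6 and 0.927 CPM. A single count lies under the limit of 3 counts that a count of 0 allows, so no fold is drawn from that library alone. The log2 fold changes of Asns, Trib3 and Chac1 were 1.22 ± 0.84, 1.31 ± 0.92 and 1.78 ± 1.87 (SE); they were the largest of all 36 and also the least certain. Without NK replicate 3 those of Asns and Trib3 were 2.37 and 2.71. That of Chac1 is not given, as its NK side would rest on 6 and 1 counts.

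The letters TTGCATCA, a form of the joint C/EBP and ATF element, were found in the promoters of 2 members and in 0.918% of all genes. One is Chac1, the member with the widest spread, and the other is the ER gene Herpud1. The unfolded protein response element TGACGTGG was in 0.603% of all genes and in 0 of the 30 members with a promoter. The element is in capitals.
Chac1, chr2:119351038-119351067, plus strand, 193 to 186 bases before the start: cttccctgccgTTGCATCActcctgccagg
Herpud1, chr8:94386306-94386335, plus strand, 112 to 105 bases before the start: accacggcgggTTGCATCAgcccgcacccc

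Because ILC1 replicate 3 held many macrophage transcripts and NK replicates 1 and 2 few matrix transcripts, the members were also read within the 3 matrix-rich libraries, as the mean of ILC1 replicates 1 and 2 against NK replicate 3. There, 23 of 36 members were higher in ILC1s, where 56.2% of all genes were. The median log2 difference was 0.030 for heat shock, 0.23 for ER and 0.52 for integrated stress response genes, against 0.058 for all genes. The highest ratios to the NK level were 1.73 for Chac1, 1.59 for Ddit4, 1.54 for Sdf2l1, 1.47 for Asns and 1.45 for Creld2, and those of Manf and Hspa5 were 1.37 and 1.18. The lowest were 0.669 and 0.668 for Hspa1a and Hspa1b, 0.700 each for Ddit3 and Ppp1r15a, and 0.731 for Dnajb4. The last 5 were thus lower in the 2 ILC1 libraries than in the NK library with like matrix transcripts. One NK library has no spread of its own, so these ratios are values and not tests.

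**Figure D4:**
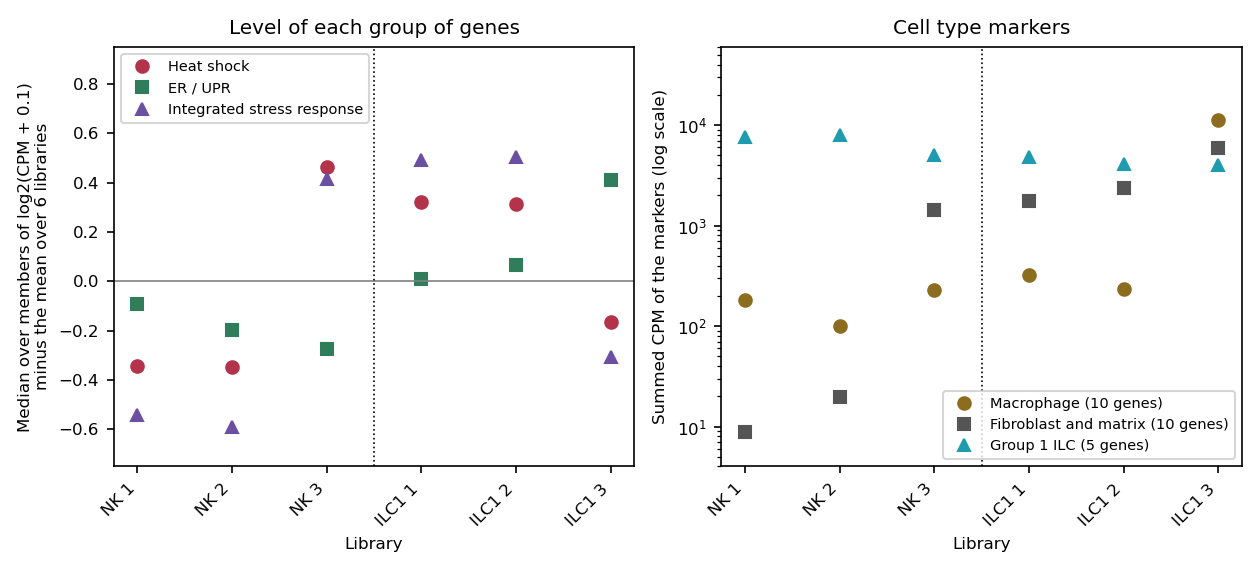
Median level of each arm in each library (centred log2 of CPM with 0.1 CPM added), beside the summed CPM of the fibroblast and matrix, macrophage and group 1 ILC marker lists on a log axis. The heat shock median runs from -0.35 to 0.46 and is above 0 in the 3 matrix-rich libraries, whereas the ER median is highest, at 0.41, in ILC1 replicate 3, where macrophage markers sum to 11165 CPM.

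Members with every ILC1 library above every NK library were also counted without NK replicate 3, ILC1 replicate 3 or both. With fewer libraries, groups without overlap are more common for any gene, so a rise in this count alone shows nothing particular to the members. With all libraries the count was 8 of 36, where 12.5% of all genes had ILC1s higher. It was 18 of 36 without NK replicate 3, where 26.2% had, and 17 of 36 without ILC1 replicate 3, where 27.8% had. Without both it was 24 of 36, where 39.4% had. Leaving out the other libraries was not counted in this way. The heat shock arm made most of the difference, with 0, 7, 6 and 12 of its 14 genes in these 4 counts. The ER arm had 6 of 14, or 42.9%, in all 4, while the share of all genes rose from 12.5% to 39.4%. Without both libraries the ER share was thus close to that of all genes. ER genes with every ILC1 library below every NK library numbered 0, 1, 0 and 2 of 14 in the same 4 counts.

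Per kilobase of exon, the mean levels in NK cells and ILC1s were 845 and 1087 CPM for Hsp90ab1, 661 and 768 CPM for Hspa8, 259 and 374 CPM for Hspa5 and 260.1 and 217 CPM for Hspa1b. The constitutive cytosolic chaperones thus led in both cell types, and the order of Hspa5 and Hspa1b was within the spread of Hspa1b in NK cells. Hspa1a, the other gene of the HSP70 pair, was at 71.7 and 64.6 CPM per kilobase. Stretches of 50 bases that occur also in another gene made 62.3% of Hspa1b, 39.4% of Hspa8, 3.44% of Hsp90ab1 and 0% of Hspa5. How reads with several matches were counted is not stated, so the order of these genes is uncertain. Atf4 was at 212 and 226 CPM per kilobase. The lowest level in NK cells was that of Chac1, at 2.13 CPM per kilobase (7.29 in ILC1s), and the lowest in ILC1s that of Dnajb4, at 5.59 CPM per kilobase (7.55 in NK cells).

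Other genes of the 3 pathways, in lists that exclude the members, also gave 0 calls by edgeR. Of 40 other ER genes, 34 had a fold change above 0, against 56.0% of all genes, with a median of 0.36 against 0.081. At an edgeR unadjusted p under 0.05, 7 were higher and 0 lower, where 6.95% and 8.82% of all genes were. DESeq2 called 4 higher (Hyou1, Ero1l, Txndc5 and Nucb2), where it called 2.76% of genes. Every ILC1 library stood above every NK library for 12 of 40 and below for 0, against 12.5% and 13.3% of all genes. ILC1 replicate 3 was the highest ILC1 library for 24 of 40, where it was for 38.6% of all genes. The 40 genes summed to 7934 CPM there and to 5652 and 5874 CPM in ILC1 replicates 1 and 2. Whether the macrophage transcripts of ILC1 replicate 3 have a part in this was not tested. Hyou1, an ER chaperone that exchanges nucleotide on BiP, averaged 144 ± 14.7 CPM in NK cells and 220.1 ± 14.6 CPM in ILC1s (SD, n = 3; edgeR adjusted p = 0.150). Txndc5, a disulfide isomerase, averaged 81.7 ± 8.05 and 122 ± 6.20 CPM (edgeR adjusted p = 0.146). Sec24d, a coat protein of vesicles leaving the ER, averaged 43.8 ± 5.01 and 66.3 ± 6.08 CPM (edgeR adjusted p = 0.168).

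Of 40 other integrated stress response genes, 38 had a fold change above 0, against 56.0% of all genes, with a median of 0.36 against 0.081. Every ILC1 library stood above every NK library for 8 of them and below for 1, against 12.5% and 13.3% of all genes. At an unadjusted p under 0.05, 5 were higher and 0 lower, against 6.95% and 8.82% of all genes, and DESeq2 called 2 higher, Mthfd2 and Eif4ebp1, against 2.76%. Mthfd2, a mitochondrial folate enzyme, averaged 38.5 ± 16.6 CPM in NK cells and 76.2 ± 8.12 CPM in ILC1s, and Eif4ebp1, a brake on cap-dependent translation, 22.7 ± 13.5 and 70.0 ± 29.95 CPM. Atf3, a stress-induced factor that is also an immediate early gene, averaged 62.1 ± 63.1 and 328 ± 213 CPM. Its values did not overlap between the groups but spread widely within both, up to 573.7 CPM in ILC1 replicate 3. Of 33 other heat shock genes, 23 had a fold change above 0, against 56.0% of all genes, with a median of 0.20 against 0.081. Groups did not overlap for 3 with ILC1s higher and 0 with ILC1s lower, against 12.5% and 13.3% of all genes. At an edgeR unadjusted p under 0.05, 1 was higher, against 6.95% of all genes. It was Hspbp1, a nucleotide exchange factor of HSP70, at 28.3 ± 3.46 and 46.4 ± 6.96 CPM (edgeR adjusted p = 0.169). Next in that list came Hspa2, another HSP70, at 11.4 ± 3.42 and 18.3 ± 3.49 CPM, and Ptges3, the HSP90 co-chaperone p23, at 108 ± 15.5 and 138 ± 16.5 CPM, both with overlap.

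Immediate early genes are induced within minutes by cell handling and by activation. A list of 15 of them summed to 7845, 6925 and 9937 CPM in NK cells and to 9667, 8813 and 12094 CPM in ILC1s. NK replicates 1 and 2 were the lowest libraries, as they were for the heat shock arm, but ILC1 replicate 3 was the highest here and not there. Mitochondrial transcripts made 1.72%, 1.39% and 3.30% of counts in NK cells and 3.07%, 2.65% and 1.93% in ILC1s. The 3 matrix-rich libraries, in which heat shock and integrated stress response sums were highest, also held the 3 highest mitochondrial shares. The part of either in the members' levels was not tested.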

How the data were processed

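Raw counts per gene were deposited by the authors in 1 table of 55291 symbols for 6 libraries. Single-end reads of 50 bases were made from poly(A)-selected RNA, per the labels' protocols. The submitters' processing notes name HISAT2 2.1.0, featureCounts 2.0.1 and GRCm38. Not given in the sources used here are the annotation's release, whether strand was used, and how reads with several matches were treated. No molecular identifiers are described, and PCR copies may be among the counts.

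The 36 members and all lists were chosen with earlier results of these data known. In R 4.3.3, edgeR 4.0.16 was run on all counts: TMM scaling, filterByExpr (14475 genes), robust quasi-likelihood fits on cell type alone, Benjamini-Hochberg adjustment and a threshold of 0.05. CPM uses TMM-scaled library sizes; 3 counts equal 0.144 to 0.174 CPM, for counting error only. Besides the members the text names the 3 genes of each other pathway list with the smallest p, and those DESeq2 called, the latter chosen after their values were seen. Single genes were judged by this fit, since 0.1 is the smallest two-sided p of an exact permutation test of 3 against 3 libraries. Alternatives used DESeq2 1.42.0 and limma 3.58.1. Exon lengths and shared 50-base stretches come from GENCODE M21 on GRCm38, and promoters from RefSeq; Hspa8, Hsp90aa1, Hsp90ab1, Hsf1, Manf and Atf6 were not matched there. Protein sequences were not analysed here.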

Additional observations from a re-analysis of the deposited data

How the results depend on the processing

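Over 17 alternatives, the median log2 fold change kept its direction for ER (0.17, without ILC1 replicate 3, to 0.41) and integrated stress response genes (0.48 to 0.99), while that of heat shock genes ran from -0.012 to 0.63. Among single members, Hspa1b was at 0.17 with library weights; Hsp90aa1 at -0.086 and Atf4 at -0.045 with a term for library sets; Hsp90aa1 at -0.13 and Atf4 at -0.087 in NK replicate 3 with ILC1 replicates 1 and 2 alone. Leaving out 1 library moved Atf4 from -0.035 (without NK replicate 2; -0.011 without ILC1 replicate 2) to 0.28, Hspa1a from -0.29 to 0.13 and Hspa1b from -0.49 to 0.16, the last 3 highest values being those without NK replicate 3. Of all 36 members, 4 changed sign with library weights, 7 with the term for library sets, 8 in the 3 matrix-rich libraries alone, and 0 to 4 when 1 library was left out. The cause was not tested.

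Of the members, 0 passed by edgeR. DESeq2 called 1 (Ddit4), where it called 2.76% of genes higher and 2.87% lower. With library weights, limma-voom called 8, all higher, where it called 7.92% of all genes higher and 7.94% lower. The 3 matrix-rich libraries alone called 6.13% of all genes higher and 6.00% lower, and 10 members, of which 5 were higher (Chac1, Asns, Ddit4, Creld2, Sdf2l1) and 5 lower (Hspa1a, Hspa1b, Ddit3, Ppp1r15a, Dnajb4). In that last fit the spread comes from a single pair of ILC1 libraries, and the lone NK library is assumed to vary like them. Leaving out 1 library gave 0 to 1. The 1 was Ddit4 without NK replicate 3 (edgeR adjusted p = 0.0470), where 1.67% of all genes were called higher and 1.33% lower.

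Over all genes, 11 were higher and 1 lower. The counts were 47 and 91 without the low-count filter, 396 and 412 by DESeq2, 1147 and 1150 by limma-voom with library weights, and 956 and 935 in the 3 matrix-rich libraries alone. Lower calls were 2 at a minimum mean of 5 CPM, 2 by limma-voom and 17 with a term for library sets. Leaving out 1 library gave 0 to 250 higher and 0 to 199 lower, with 250 and 199 without NK replicate 3, 11 and 11 without ILC1 replicate 3, and 0 without NK replicate 1, NK replicate 2, ILC1 replicate 1 or ILC1 replicate 2. With the replicate number as a block, 0 genes were higher and 0 lower, while 1584 had an unadjusted p under 0.05; same-numbered libraries deviated in opposite directions (correlations of deviations -0.36, -0.36 and -0.56), so the numbers do not show a pairing.

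The members' counts were large except for Chac1, Trib3 and Hspb1, so the spread between 3 libraries, not depth, sets most intervals.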
